A study of Mus musculus with 13 samples.

Results

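Rims2, Kank4, Pitpnm3, Rab6b and Fam150a were 5 of the 25965 gene intervals whose poly(A) RNA was measured in mouse embryonic fibroblasts given hairpins against Setdb1 or control hairpins. They were chosen by their log2 difference between Setdb1 and control hairpins, which was strongly negative both without and with the drug 5-azacytidine (5-aza). Their levels in those comparisons are therefore a description and carry no test. All 5 were among the 13134 genes tested, which had at least 1 RPM (reads per 1 M reads of the library) in at least 3 of the 12 hairpin libraries. Rims2 passed that filter through its control libraries alone, since it was below 1 RPM in each of the 6 Setdb1 hairpin libraries.

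The hairpin libraries formed 4 groups of 3, given by the target of the hairpin (control or Setdb1) and by whether 5-aza was added. In the controls, replicates A and B carried the non-silencing hairpin Nons and replicate 1 carried Luc, a hairpin against luciferase. In the Setdb1 groups, replicates A and B carried shSetdb1.4 and replicate 1 carried shSetdb1.6. A further library, with PGK in its name, was treated with 5-aza, has no named hairpin and entered no fit. The study's methods name a PGK sample, used to find PGK strain variants. Whether it is this library is not stated, and the genotype of this library is not given. Per those methods, the cells of the hairpin libraries were primary fibroblasts from E13.5 embryos. They were female, with a mutant Xist allele (XistΔA) on the maternal X and a PGK strain X from the father. Hairpins came from retroviruses with puromycin selection after 24 h, 5-aza was present for 24 h from day 3, and RNA was taken on day 7. By the study's account, Setdb1 hairpins went into cells that also carried 1 gene-trap allele of the gene (Setdb1+/gt), and Nons into wild-type cells. The genotype of the Luc cells is not stated, so hairpin and genotype cannot be told apart. Nothing in the labels says that the libraries of a group came from separate embryos or transductions, and p-values then measure only the spread between these libraries.

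Setdb1 is an H3K9 methyltransferase, an enzyme that puts a repressive mark on histone H3 and is known for keeping germline genes and endogenous retroviruses silent. 5-aza is incorporated into nucleic acids and depletes the enzymes that maintain DNA methylation. A gene that falls when Setdb1 is depleted moves in the direction opposite to the release of a silenced gene. The 5 genes encode proteins of unrelated families. Rims2 acts in vesicle exocytosis, Rab6b in transport from the Golgi, Kank4 belongs to a family at cell adhesions to the matrix, Fam150a (also named Alkal1) acts in receptor signalling, and Pitpnm3 is related by sequence to phosphatidylinositol transfer proteins.

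The hairpins are shown first because each fall was compared between them. The 21 bases of each guide strand are given 5′ to 3′ with the seed, bases 2 to 8, in capitals.
shSetdb1.4: tTTGTCTGcaaagtcatctgt
shSetdb1.6: tAGATCTTgagaactgctttt
The guides have different seeds. The site of shSetdb1.4 lies in exon 16 of Setdb1 at chr3:95327805-95327825, and that of shSetdb1.6 in exon 5 at chr3:95348003-95348023 (GRCm38, minus strand, both in coding sequence). Setdb1 was the only gene of the GENCODE transcripts with a perfect match to either site. In the transcripts of the 5 genes the longest run shared with either site was 10 bases. The complement of the shSetdb1.4 seed occurred in transcripts of Rims2 and Pitpnm3, and that of the shSetdb1.6 seed in Rims2. Such a 7-base match occurred in 34.6% and 33.7% of the tested genes with a transcript. Kank4, Rab6b and Fam150a had no match to either seed.

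Reads in genes numbered 36.4 to 51.3 M per hairpin library, and the 5-aza library without a named hairpin held 17.4 M. Setdb1 itself was between 42.7 and 46.4 RPM in the 6 control libraries and between 10.5 and 15.4 RPM in the 6 Setdb1 hairpin libraries. All 10 fibroblast markers examined were tested, and Col1a1 and Fn1 led them at control means of 8431 and 9429 RPM. The lowest of them were Dcn and Lum, at 9.27 and 0.716 RPM. Of 11 neuronal markers in the table only 5 passed the filter. Among these, Tubb3, Stmn2 and Syn1 had control means of 45.79, 23.03 and 9.461 RPM, and Elavl4 and Nefm were lower. Rbfox3 and Snap25, which define mature neurons, had a mean of 0 RPM in the control group, and 0 of the 5 neuroendocrine markers passed. In bulk RNA, fewer cells of a type and less RNA per cell cannot be told apart.

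Rims2 encodes RIM2, a scaffold of the presynaptic active zone and of secretory granules that binds Rab3 and holds vesicles near calcium channels. It lies on chromosome 15 at 39198332 to 39681940 (ENSMUSG00000037386, plus strand) and spans 484 kb. Its level in the control libraries was 3.25 RPM with Luc and 3.27 and 3.15 RPM with Nons. With Setdb1 hairpins it was 0.262 RPM with shSetdb1.6 and 0.316 and 0.187 RPM with shSetdb1.4. These levels rested on 146 to 185 reads per control library and 11 to 15 reads per Setdb1 hairpin library, so the low side is set by few reads. With 5-aza the controls were at 2.74, 2.71 and 2.81 RPM (Luc, then Nons A and B). The Setdb1 hairpin libraries with 5-aza were at 0.211 RPM with shSetdb1.6 and at 0.240 and 0.259 RPM with shSetdb1.4. The mean log2 difference was -3.69 (SE 0.18) without 5-aza and -3.55 (SE 0.18) with it, or 12.9-fold and 11.7-fold lower. It ranked first of all tested genes in both conditions. Setdb1 hairpin cells kept 7.91% (no 5-aza) and 8.59% (with 5-aza) of the control mean, a smaller share than the 30.4% and 29.8% left of Setdb1 itself.

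Rab6b encodes a small GTPase of the Rab6 group, which directs vesicles of the Golgi along microtubules and is known as the form enriched in neurons. It lies on chromosome 9 at 103112074 to 103185270 (ENSMUSG00000032549, plus strand). Its control level was 5.16 RPM with Luc and 5.21 and 5.26 RPM with Nons, a spread of 0.05 RPM (SD, n = 3). With Setdb1 hairpins it was 1.22 RPM with shSetdb1.6 and 1.30 and 1.09 RPM with shSetdb1.4. Both groups were tight and far apart. With 5-aza the controls were at 4.60, 5.55 and 5.34 RPM and the Setdb1 hairpin libraries at 1.25, 1.08 and 1.21 RPM. The log2 difference was -2.12 (SE 0.10) without 5-aza and -2.13 (SE 0.10) with it, the closest match between conditions among the 5 genes.

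Pitpnm3 encodes Nir1, a membrane-associated relative of the phosphatidylinositol transfer proteins that lacks the lipid transfer domain of Pitpnm1 and Pitpnm2. It lies on chromosome 11 at 72047528 to 72135778 (ENSMUSG00000040543, minus strand). Its control level was 4.27 RPM with Luc and 6.33 and 5.80 RPM with Nons, and with 5-aza it was 4.87, 8.12 and 7.19 RPM in the same order. The Luc libraries were the lowest of their groups. With Setdb1 hairpins it was 1.07 RPM with shSetdb1.6 and 1.64 and 1.05 RPM with shSetdb1.4. With 5-aza these became 0.748, 1.08 and 0.796 RPM. The log2 difference was -2.13 (SE 0.24) without 5-aza and -2.93 (SE 0.24) with it, the gene with the widest gap between conditions.

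Kank4 encodes a KANK protein, of the family that links talin at integrin adhesions to cortical microtubule complexes. It lies on chromosome 4 at 98754898 to 98817537 (ENSMUSG00000035407, minus strand). Its control level was 7.35 RPM with Luc and 6.40 and 6.34 RPM with Nons. With Setdb1 hairpins it was 1.03 RPM with shSetdb1.6 and 1.49 and 1.56 RPM with shSetdb1.4. With 5-aza the controls were at 6.74, 7.43 and 7.19 RPM and the Setdb1 hairpin libraries at 0.940, 1.20 and 0.995 RPM. The log2 difference was -2.32 (SE 0.15) without 5-aza and -2.77 (SE 0.15) with it. The RNA A730085A09Rik overlaps Kank4 on the opposite strand. It held at most 22 reads in any hairpin library, against 294 to 386 reads of Kank4 in a control library, and whether the counting used strand is not stated.

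Fam150a encodes a secreted ligand of the receptor tyrosine kinases ALK and LTK. It lies on chromosome 1 at 6359331 to 6394731 (ENSMUSG00000087247, plus strand). Its control level was 2.78 RPM with Luc and 3.22 and 3.93 RPM with Nons, and with 5-aza it was 2.45, 2.91 and 2.98 RPM. With Setdb1 hairpins it was 1.05 RPM with shSetdb1.6 and 1.33 and 1.29 RPM with shSetdb1.4. With both treatments it was 0.825, 0.860 and 0.896 RPM. The log2 difference was -1.43 (SE 0.14) without 5-aza and -1.69 (SE 0.14) with it, the smallest of the 5 falls.

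For each of the 5 genes all 3 Setdb1 hairpin libraries lay below all 3 controls in both conditions. Of all tested genes, 10.4% had such an order without 5-aza and 10% with it, and only 18 genes (0.137%) were at least 2-fold lower in both. With genes ordered by the weaker of their falls, Rims2, Kank4, Pitpnm3 and Rab6b held ranks 1 to 4. The ribosomal protein pseudogene Rps15a-ps2, Setdb1 and AA465934 came between them and Fam150a, which had rank 8. The next 5 genes were Susd2, Lgr5, Eif3s6-ps2, Sytl1 and Itga4, with weaker falls of -1.41, -1.41, -1.36, -1.34 and -1.17 on the log2 scale. Fam150a, at -1.43, was therefore not set apart from the genes just outside the set.

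**Figure D1:**
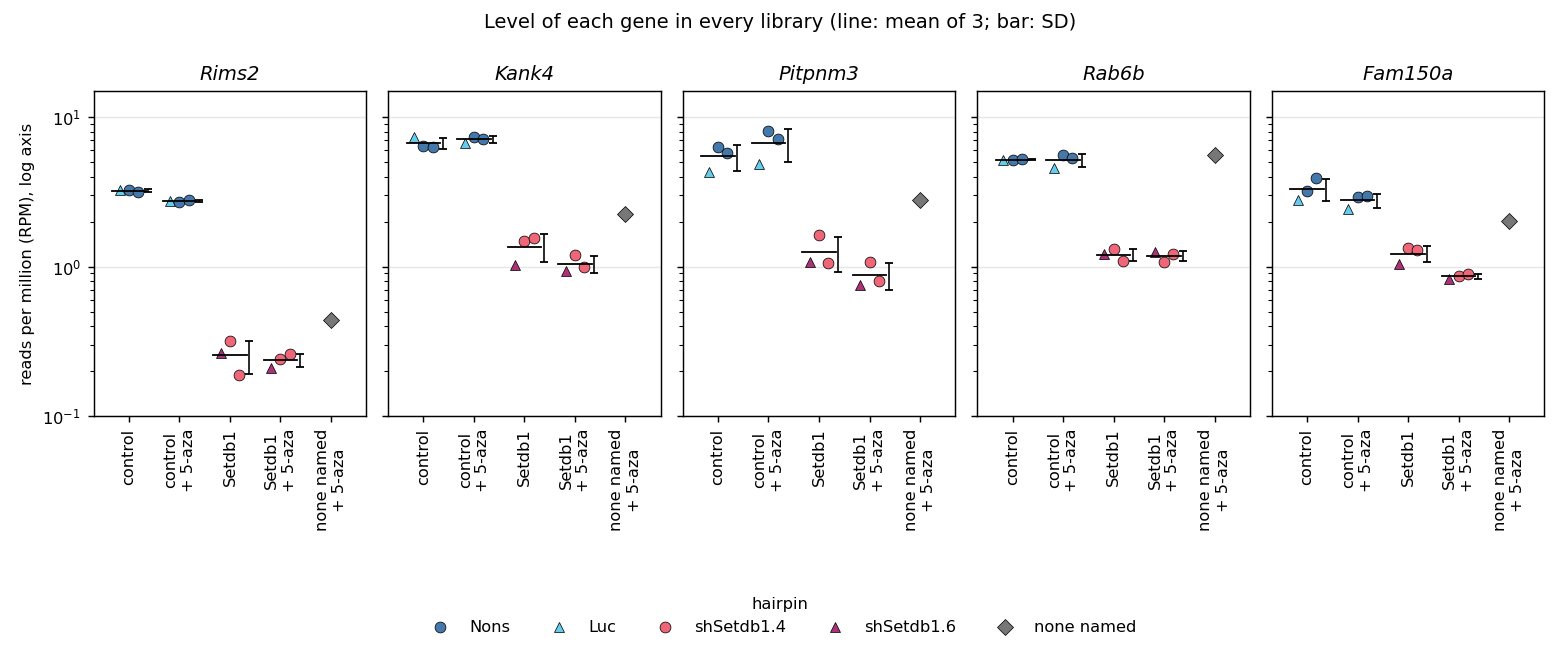
Level of each gene (RPM, log axis) in the 13 libraries. Points are libraries, coloured and shaped by hairpin, lines are means of 3 and bars are SD. In each panel the 6 Setdb1 hairpin libraries lie below the 6 control libraries, and the library with no named hairpin is at the control level for Rab6b (5.59 RPM) and closer to the Setdb1 hairpin libraries for Rims2 (0.441 RPM).

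Levels can be compared between genes only per length. Dividing by the summed exon length gave, in the control group, RPKM values of 3.41 ± 0.594 (SD, n = 3) for Fam150a, 1.397 ± 0.119 for Kank4, 1.04 ± 0.00995 for Rab6b, 0.557 ± 0.109 for Pitpnm3 and 0.310 ± 0.00622 for Rims2. The control libraries of neighbours in this order did not overlap. Fam150a has the shortest exons (971 bases) and Rims2 the longest (10389 bases), so the order differs from that by RPM, in which Kank4 led. No stretch of 50 bases in the transcripts of any of the 5 genes occurred in an annotated transcript of another gene on the same strand.

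Of the 5 genes, 3 had a promoter window in RefSeq, and those upstream of Kank4 and Pitpnm3 are shown because they overlap no annotated exon. Each line gives the 250 bases before the transcription start (GRCm38.p6), 5′ to 3′ on the gene's strand, with CpG dinucleotides in capitals. The windows are chr4:98817538-98817787 for Kank4 and chr11:72135890-72136139 for Pitpnm3, both on the minus strand.
Kank4: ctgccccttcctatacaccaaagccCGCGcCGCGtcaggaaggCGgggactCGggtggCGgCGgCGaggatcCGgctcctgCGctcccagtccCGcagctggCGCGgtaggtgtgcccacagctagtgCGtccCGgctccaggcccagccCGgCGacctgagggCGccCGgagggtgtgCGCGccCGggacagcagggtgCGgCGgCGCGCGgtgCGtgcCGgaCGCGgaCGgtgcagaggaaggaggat
Pitpnm3: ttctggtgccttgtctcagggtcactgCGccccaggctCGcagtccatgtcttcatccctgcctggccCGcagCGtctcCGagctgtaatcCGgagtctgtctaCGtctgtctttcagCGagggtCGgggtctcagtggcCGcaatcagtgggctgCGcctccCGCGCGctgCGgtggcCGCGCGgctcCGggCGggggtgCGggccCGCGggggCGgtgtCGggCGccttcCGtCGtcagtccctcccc
Kank4 had 33 CpGs in the window, Pitpnm3 28 and Rab6b 40, where the median of 32851 RefSeq windows was 6. Windows with at least as many CpGs made up 4.03%, 7.61% and 1.31% of all. Searched on both strands, TATAAA and CCAAT occurred in none of the 3 windows (12.4% and 33.8% of all windows hold them). GGGCGG occurred in those of Pitpnm3 and Rab6b and in 32.7% of all. The Rab6b window lies in an annotated exon and is not printed. Rims2 and Fam150a had no entry.

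The hairpins against Setdb1 could be compared with a test, since the choice of the genes rested on the group means and not on the difference between hairpins. Setdb1 was lower with shSetdb1.6 (12.1 and 10.5 RPM, without and with 5-aza) than with shSetdb1.4 (13.7 to 15.4 RPM), by a log2 difference of -0.37 (SE 0.05, limma adjusted p 0.0299). It was 1 of 4 genes past the threshold (0.0305% of those tested), while 1835 had an unadjusted p under 0.05, and the other 3 were Celf1, Cs and Ube3c. None of the 5 genes passed. Kank4 differed by -0.40 (95% interval -0.66 to -0.13, limma adjusted p 0.227), with shSetdb1.6 below both shSetdb1.4 libraries of the same 5-aza condition each time. Pitpnm3 differed by -0.30 (-0.69 to 0.08, limma adjusted p 0.461) and Fam150a by -0.20 (-0.46 to 0.05, limma adjusted p 0.448). For Rims2 the difference was -0.06 (-0.51 to 0.38) and for Rab6b 0.08 (-0.16 to 0.31). These intervals leave room for differences as large as that of Setdb1 in 4 of the genes, all but Rab6b. Replicate 1 always carried the other hairpin, so hairpin and replicate cannot be told apart. No label names a culture. Libraries of the same hairpin and replicate name, without and with 5-aza, were taken here as 1 culture, which is an inference from the names. On that reading shSetdb1.6 was a single culture. The fit counts its libraries as independent, so these SEs, intervals and p-values do not measure the spread between cultures.

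Of the control hairpins, Luc gave 1 gene (0.00761%) that differed from Nons, Pgk1, and 2507 genes at an unadjusted p under 0.05. Pitpnm3 was lower with Luc by a log2 difference of -0.58 (95% interval -0.96 to -0.19, limma adjusted p 0.167) and Fam150a by -0.31 (-0.56 to -0.06, limma adjusted p 0.207), and neither passed. For both genes the Luc libraries were the lowest of their groups. Rab6b differed by -0.13 (-0.37 to 0.10), Kank4 by 0.05 (-0.22 to 0.31) and Rims2 by 0.00 (-0.45 to 0.45).

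**Figure D2:**
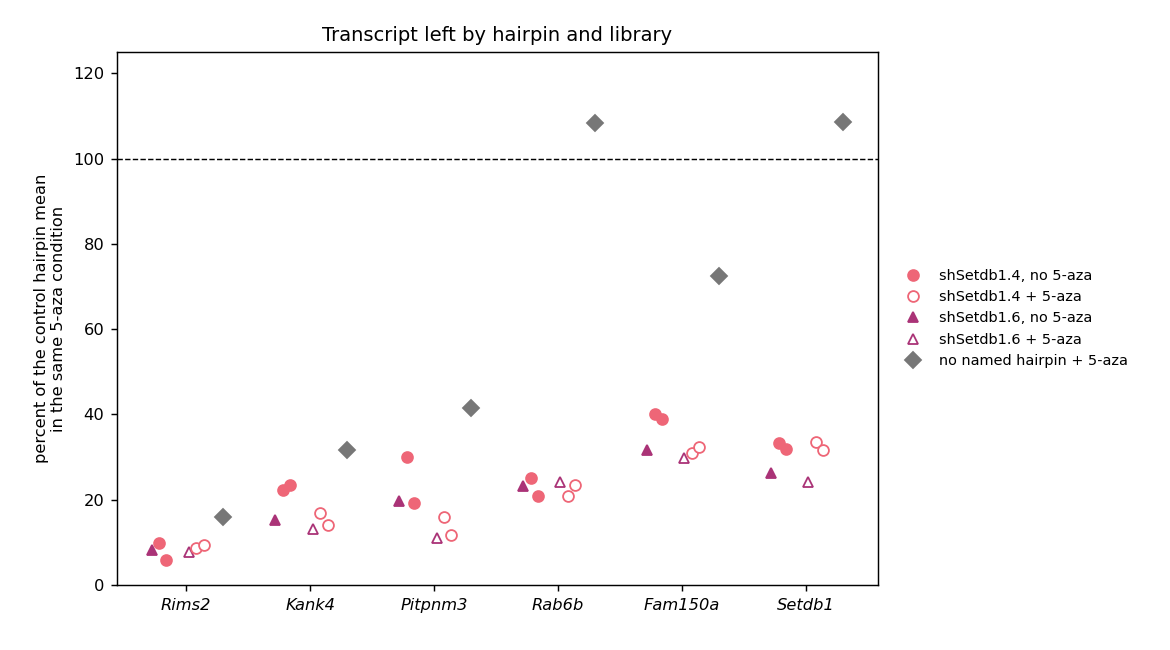
Transcript left in each Setdb1 hairpin library, and in the library with no named hairpin, as a percent of the mean of the 3 control hairpin libraries in the same 5-aza condition (the latter against control hairpin with 5-aza). Filled symbols are without and open symbols with 5-aza. Rims2 kept 5.80% to 9.79% with either hairpin and Fam150a 29.7% to 40.1%, while the library with no named hairpin had 108% of the control mean of Rab6b and of Setdb1.

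Whether 5-aza moved the 5 genes was tested as the mean of its effects in control and in Setdb1 hairpin cells, which does not depend on the difference between the hairpins. Of all tested genes 43% were called, 12.5% as lower and 30.6% as higher. Fam150a fell with 5-aza by 0.37 on the log2 scale (SE 0.10, 95% interval -0.59 to -0.15, limma adjusted p 0.0116) and was lower in 6 of 6 cultures. Its change was -0.24 (SE 0.14) in control and -0.50 (SE 0.14) in Setdb1 hairpin cells. None of the other 4 genes passed. Rims2 had -0.15 (-0.43 to 0.12, limma adjusted p 0.343), Kank4 -0.14 (-0.37 to 0.10, limma adjusted p 0.320), Pitpnm3 -0.11 (-0.47 to 0.25, limma adjusted p 0.610) and Rab6b -0.02 (-0.18 to 0.14, limma adjusted p 0.827). Without Setdb1 hairpin replicate 1, Kank4 passed at -0.23 (limma adjusted p 0.0363).

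The average hid opposite movements in Pitpnm3. In the control cultures Pitpnm3 was higher with 5-aza by 0.19 (Luc), 0.36 and 0.31 (Nons), and in the Setdb1 hairpin cultures lower by a log2 difference of -0.52 (shSetdb1.6), -0.60 and -0.40 (shSetdb1.4). The difference between these effects was -0.80 (SE 0.33), a value from the same contrasts as the choice of the gene, so it was not tested. Kank4 had 0.09 (SE 0.15) in control and -0.36 (SE 0.15) in Setdb1 hairpin cells, with the 3 Setdb1 cultures all lower and the controls split. Rims2 was lower in 5 of 6 cultures, the exception being shSetdb1.4 replicate B, which went from 11 to 13 reads. Rab6b moved both up and down, between -0.27 and 0.16 on the log2 scale.

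**Figure D3:**
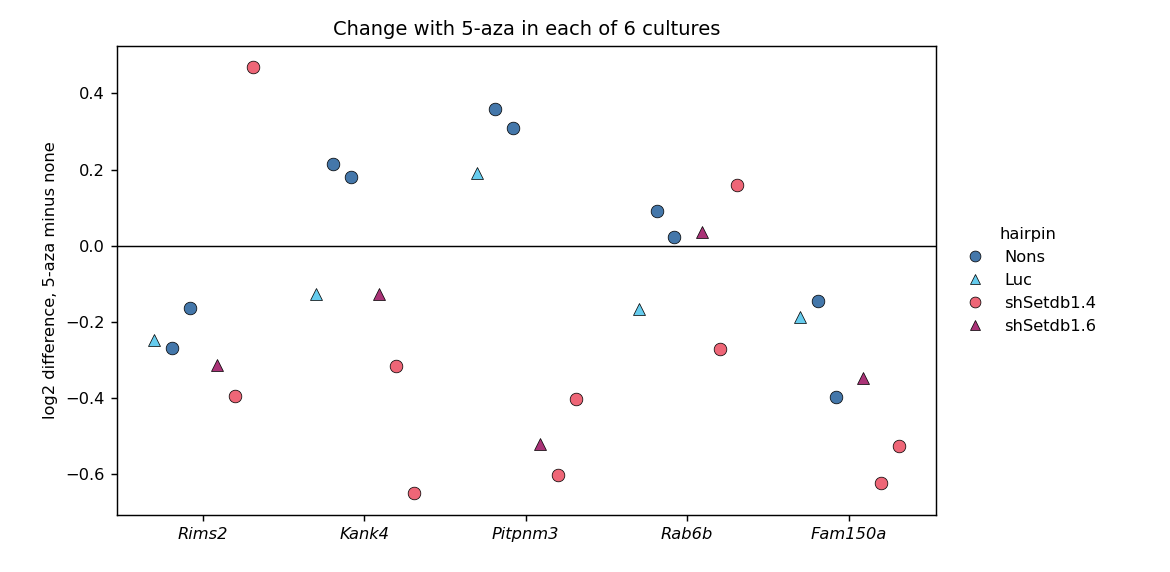
Log2 difference with 5-aza minus without, in each of the 6 cultures, which were inferred from the hairpin and replicate names. Each point is the difference of 2 libraries. Fam150a lies below 0 in all 6 cultures, and Pitpnm3 lies above 0 in the 3 control cultures and below it in the 3 Setdb1 hairpin cultures.

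The library with no named hairpin is 1 library, so its values have no replicate check and no test. Its strain and genotype are not given, so they cannot be told apart from the lack of a named hairpin. Rims2 was at 0.441 RPM there (9 reads, exact 95% Poisson interval 0.202 to 0.838 RPM), where the controls with 5-aza were at 2.71 to 2.81 RPM, a log2 difference of -2.64 from their mean. Kank4 was at 2.26 RPM (interval 1.65 to 3.01), a difference of -1.66, and Pitpnm3 at 2.80 RPM (2.12 to 3.62), a difference of -1.23. Fam150a, at 2.01 RPM (1.44 to 2.73), had -0.46. These 4 genes were thus below every control library and above every Setdb1 hairpin library. Rab6b, at 5.59 RPM (4.61 to 6.72), was 0.12 above the control mean, and Setdb1 was also 0.12 above it at 47.0 RPM (44.1 to 50.1). Intervals cover counting error only. Of all tested genes, 353 (2.69%) were at least 2-fold lower and 290 (2.21%) at least 2-fold higher in this library, and 0.221% were as low as Rims2, 0.838% as low as Kank4 and 1.71% as low as Pitpnm3. The summed level of the 6 macrophage markers was 105 RPM there and 9.64 to 14.0 RPM in the hairpin libraries, with Lyz2 at 55.9 RPM, and that of the 7 glia and Schwann cell markers was 6.72 RPM against 0.906 to 2.32 RPM. Their part in these values was not tested.

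The tested relatives of the 5 genes had log2 differences between Setdb1 and control hairpins of -0.22 to 0.25. Rims1, Rims3 and Rims4 were under the filter, with hairpin group means of at most 0.401 RPM, and Fam150b, the other ligand of the family, was at most 0.151 RPM. Rab6a, the widely expressed Rab6, was at 195 ± 3.11 RPM (SD, n = 3) in controls and 197 ± 1.13 RPM with Setdb1 hairpins, a log2 difference of 0.01 (SE 0.03, limma adjusted p 0.802). The 5 tested relatives of Pitpnm3 were Pitpnm1, Pitpnm2, Pitpna, Pitpnb and Pitpnc1, and 0 passed without 5-aza. With 5-aza Pitpnm1, a transfer protein at contacts of the endoplasmic reticulum and plasma membrane, rose by 0.25 (SE 0.05, limma adjusted p 0.00393).

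Kank1 and Kank2 were lower with Setdb1 hairpins, by far less than Kank4. Kank2 was at 256 ± 17.4 RPM in controls and 220 ± 8.71 RPM with Setdb1 hairpins, a log2 difference of -0.22 (SE 0.05, limma adjusted p 0.0120), and with 5-aza the difference was -0.16 (SE 0.05, limma adjusted p 0.0331). Kank1 went from 45.0 ± 1.83 to 40.4 ± 2.11 RPM, a difference of -0.16 (SE 0.05, limma adjusted p 0.0428), and with 5-aza it was -0.17 (SE 0.05, limma adjusted p 0.0220). Both calls held when each library was centred on its median and under quantile normalization. Several rested on single libraries. Without 5-aza, Kank2 was no longer called when Setdb1 hairpin replicate 1 was left out (limma adjusted p 0.0557). Kank1 was called in 4 of 12 fits made with a library removed, with limma adjusted p up to 0.158, and lost its call without any control replicate, Setdb1 hairpin replicate 1 or A, 5-aza control replicate B, or Setdb1 hairpin with 5-aza replicate 1 or B. With 5-aza, Kank2 was called in 7 of 12 such fits and lost its call without any 5-aza control or without Setdb1 hairpin replicate 1 or B of that condition (limma adjusted p up to 0.113). Kank1 was called in 9 of 12, losing its call without the 5-aza control replicate A or Setdb1 hairpin replicate 1 or B of that condition (limma adjusted p up to 0.0823). Kank3 had -0.12 (SE 0.17) and -0.17 (SE 0.17) and did not pass. Among all tested genes 12.4% were called without 5-aza (3.4% lower) and 19.9% with it (5.37% lower).

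The partners of these proteins were examined as lists, with counts on the deposited scale. Of 40 genes of the release machinery around RIM, 27 were tested, of which 0 were lower and 1 higher without 5-aza, and 1 lower and 3 higher with it. Cacna1a, a calcium channel subunit of the kind that RIM proteins tether, rose in both conditions, from 13.8 ± 0.896 to 22.3 ± 1.10 RPM without 5-aza (0.70, SE 0.06, limma adjusted p 1.38e-05) and by 0.51 (SE 0.06, limma adjusted p 0.000145) with it. Of 17 partners of KANK proteins at the cell cortex, 0 were lower and 2 higher in each condition, Ppfibp1 (0.16 and 0.26) and Clasp2 (0.21 and 0.25). Of 25 tested genes of the phosphoinositide cycle, 0 were lower and 2 higher without 5-aza, and 1 lower and 4 higher with it, and the lipid kinase gene Pi4k2b passed in both (0.26 and 0.23). Of 29 tested Rab6 effectors and regulators, 0 were lower and 1 higher without 5-aza and 1 lower and 2 higher with it, with the kinesin gene Kif20a higher in both (0.30 and 0.55). Leaving out 1 library without 5-aza ended the call of Ppfibp1 (control replicate 1 or A, Setdb1 hairpin replicate 1 or A), of Clasp2 (control replicate A or B, Setdb1 hairpin replicate 1) and of Kif20a (any control replicate, Setdb1 hairpin replicate 1 or B). Of 12 tested genes of ALK signalling, 0 were called in either condition. The partners lower with 5-aza were Vamp2 of the release machinery (-0.40, limma adjusted p 0.00729) and Ptk2b of the phosphoinositide list (-0.23, limma adjusted p 0.0254). Apba1 of the Rab6 list was also lower there (-0.75, limma adjusted p 0.00629). None of these passed without 5-aza. Of all tested genes 9.01% were called higher without 5-aza and 14.5% with it. The median log2 differences of the lists were between -0.01 and 0.05 without 5-aza and between -0.05 and 0.07 with it, where the medians over all tested genes were 0.03 and 0.05.

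The counts of partners called lower depended on the scaling. Over the 107 different genes of the lists, 0 were lower and 6 higher without 5-aza and 3 lower and 11 higher with it, as deposited. With each library centred on its median these became 5 lower and 5 higher, and 13 lower and 10 higher. Quantile normalization gave 1 lower and 6 higher, and 7 lower and 11 higher. The 5 genes lower without 5-aza after centring were Rab3c of the release machinery (-0.70, limma adjusted p 0.0383), Vcl (-0.18) and Phldb2 (-0.25) of the KANK partners, Rgp1 of the Rab6 list (-0.13) and Shc1 of the ALK list (-0.10), and Ppfibp1 lost its call. With 5-aza Ptn and Mdk of the ALK list were among the 13. Single libraries also moved the counts. Without 5-aza, 10 partners were higher when the 5-aza control replicate A was left out and 3 without control replicate A or Setdb1 hairpin replicate 1. There, 1 partner was lower without the 5-aza control replicate 1 or Setdb1 hairpin replicate B, and 2 without Setdb1 hairpin with 5-aza replicate 1 or A. With 5-aza, 7 were higher without Setdb1 hairpin replicate 1 or B of that condition, and 6 and 8 were lower without the 5-aza control replicate 1 and Setdb1 hairpin replicate A of that condition.

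None of the genes beside the 5 loci was called lower with Setdb1 hairpins on the deposited scale. The 2 nearest tested genes on either side gave 20 neighbours, of which 0 were called lower in either condition and 3 higher in each. Among all tested genes 3.4% were called lower and 9.01% higher without 5-aza, and 5.37% and 14.5% with it. So few neighbours cannot show a departure from these shares. Their log2 differences ran from -0.22 to 0.73 without 5-aza and from -0.12 to 0.57 with it. Dcaf13 beside Rims2 (0.18 and 0.20) and Usp1 beside Kank4 (0.38 and 0.36) rose in both conditions, Gm9826 beside Fam150a rose without 5-aza (0.73) and Fam64a, 0.158 kb from Pitpnm3, rose with it (0.57). Srprb, 2.76 kb from Rab6b on the opposite strand, was at 69.5 RPM in controls and 69.3 RPM with Setdb1 hairpins. With each library centred on its median, 2 neighbours were called lower in each condition, Zfpm2 and Ryk without 5-aza and Ryk and Rb1cc1 with it, with log2 differences of -0.18 to -0.13, and Dcaf13 was no longer called without 5-aza. Under quantile normalization Zfpm2 was called lower without 5-aza, and Dcaf13 again lost its call there. Leaving out 1 library ended the call of Dcaf13 without 5-aza for control replicates 1 and A and Setdb1 hairpin replicate 1, and Rb1cc1 was called lower with 5-aza when the 5-aza control replicate 1 was left out.

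**Figure D4:**
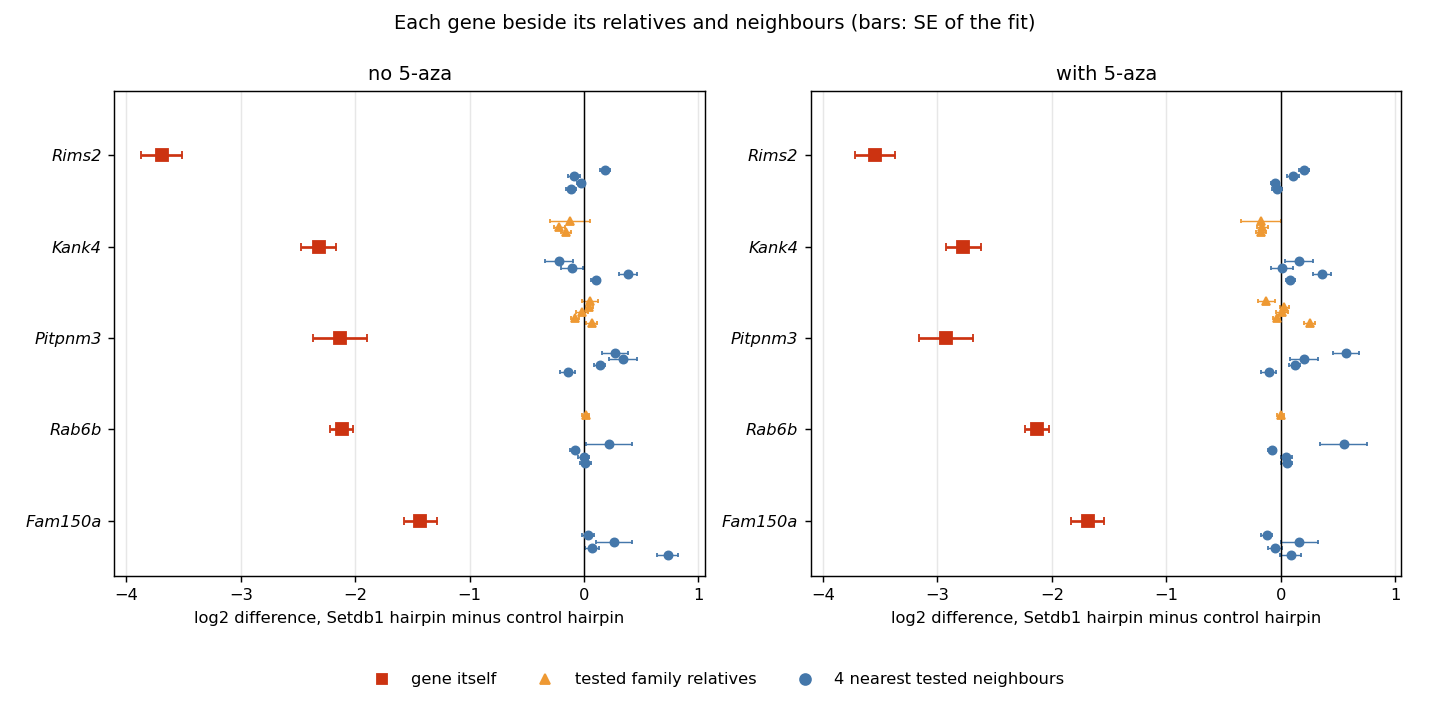
Log2 difference, Setdb1 hairpin minus control hairpin, without (left) and with 5-aza (right), for each gene, its tested family relatives and its 4 nearest tested neighbours. Bars are SE of the fit. The 5 genes lie between -3.69 and -1.43, and their relatives and neighbours lie between -0.22 and 0.73.

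The genes whose pattern over the 12 hairpin libraries was most like that of each gene were found by the root mean square difference of centred log2 RPM. Of the 5 genes, only Fam150a had none of the others among its 3 nearest. Kank4 and Pitpnm3 were nearest to one another, at 0.28, and for both Rab6b and then Rps15a-ps2 followed. Rims2 had Kank4, Pitpnm3 and Rab6b at 0.61 to 0.77, and nothing nearer. Rab6b was nearest to Rps15a-ps2 (0.23) and Setdb1 (0.27), then Kank4 (0.32). Fam150a was nearest to Eif3s6-ps2 (0.21) and Setdb1 (0.23), then Susd2 (0.30). Because the distance is set mostly by the fall with Setdb1 hairpins, which chose the genes, it describes the similar size of their falls.

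Other markers moved with the hairpin groups. The epithelial keratin genes Krt8 and Krt18 were higher with Setdb1 hairpins, Krt18 from 2.87 ± 0.275 to 9.60 RPM without 5-aza (1.74, SE 0.10, limma adjusted p 5.22e-07) and from 8.97 to 19.6 RPM with it. Epcam and Cdh1, which define epithelial cells, had hairpin group means of at most 0.0775 RPM. Of the 5 tested neuronal markers 1 was lower (Elavl4) and 2 higher (Tubb3 and Syn1) without 5-aza, and 0 lower and 1 higher (Nefm) with it. The summed neuronal markers were at 78.6 to 85.8 RPM in controls and 97.6 to 103 RPM with Setdb1 hairpins, and at 73.7 to 82.0 and 79.7 to 97.7 RPM with 5-aza. The skeletal muscle marker Des was also higher without 5-aza, by 0.53 (limma adjusted p 0.00763), and of the fibroblast markers Thy1 was lower with 5-aza, by a log2 difference of -0.46 (limma adjusted p 0.0277). None of the 5 glial, macrophage or endothelial markers tested was called in either condition. The part of these shifts in the falls was not tested.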

How the data were processed

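Poly(A) RNA was sequenced as 100 bp single-end reads. The authors deposited 1 table of log2 RPM values. The submitters' processing notes name CASAVA 1.4 and mm10 (GRCm38), and the aligner and counter of this table are not given in the sources used here. Values of every library were whole multiples of 1 read (100% within 0.02 read), and genes without a read sat at 0.9 read. Columns of 13 libraries were used. Groups came from the sample titles.

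The filter kept genes that reached 1 RPM in 3 or more hairpin libraries (13134). A limma model (version 3.58.1, R 4.3.3, moderated variances with a trend) held all 12 libraries, with group as the term, or hairpin plus the 5-aza effects for the comparisons between hairpins. Tests were two-sided, with Benjamini-Hochberg adjustment over all genes tested and a threshold of 0.05. The fits were run on simulated data with independent noise in every library, which does not cover libraries that share a culture. The fits treat the libraries of 1 culture as independent. Intervals are 95%. RPKM used exon lengths from GENCODE on GRCm38. Python 3.11.15 made the figures.

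The 5 genes and all gene lists were chosen with earlier results of these data known. Named genes are the 5 genes, Setdb1, family relatives, partners called in both hairpin comparisons, the 2 nearest tested genes on either side, the 3 genes of nearest pattern, the next 5 genes in order of fall, and marker lists. Others were named after their values were seen. Alternatives were other filters, pseudocounts, scalings, blocks, the 2 groups alone and leaving out each library.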

Additional observations from a re-analysis of the deposited data

Results flagged for a closer look

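Pitpnm3 moved in opposite directions with 5-aza in the hairpin groups, with a mean log2 change of 0.29 in the 3 control cultures, all higher, and -0.51 in the 3 Setdb1 hairpin cultures, all lower. The difference was not tested.

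The library with no named hairpin lies outside the comparisons and held Rab6b at 5.59 RPM and Setdb1 at 47.0 RPM. The highest control libraries with 5-aza held 5.55 and 43.9 RPM. In this library 1 read is worth 0.0491 RPM, so Rab6b was level with the highest control.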

How the results depend on the processing

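The falls of the 5 genes with Setdb1 hairpins kept their direction under every alternative run. Their size depended on the scale: with log2(RPM + 1) Rims2 had -1.75 and -1.60 (without and with 5-aza), while quantile normalization gave -4.10 and -5.78, and with it the 5-aza change of Rims2 passed at -1.20 (limma adjusted p 0.00393).

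Without 5-aza 1630 genes were called between the hairpin groups (447 lower, 1183 higher), and 721 to 1832 with 1 library left out. With 5-aza 2609 were called (705 lower, 1904 higher), 1279 to 3428 with 1 library left out and 1548 with the 2 groups alone. Median centring turned these splits into 857 lower and 791 higher, and 1264 and 1199. Quantile normalization gave 660 and 797, and 1122 and 1351. For 5-aza the counts were 4607 to 5892 with 1 library left out, and median centring split them into 2748 lower and 2773 higher and quantile normalization into 2566 and 2707, where the deposited values gave 1640 and 4013. The cause was not tested.

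Between the Setdb1 hairpins 4 genes were called, 1 with no filter and 0 to 6 with 1 library left out. Between Luc and Nons 1 gene was called, 3 with median centring, 2 with quantile normalization and 1 to 55 with 1 library left out. Fam150a passed for 5-aza in each of the 12 fits without 1 library (limma adjusted p 0.00563 to 0.0309).

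The labels do not say what libraries of the same replicate name share. Same-name control and Setdb1 hairpin libraries of the same 5-aza state had residual correlations of -0.47 to 0.69. Those taken as the same culture had 0.0999 to 0.634. The highest value, 0.69, was between the replicate A libraries with 5-aza. Whether some replicate names mark a batch was not tested. A replicate block gave 2388 genes without 5-aza, 3751 with 5-aza and, with culture as the block, 6730 for 5-aza.

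Depth limits Rims2 most, at 11 to 15 reads per Setdb1 hairpin library.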
